A study of Mus musculus with 44 samples.

Results

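Dendritic cells sorted from the lymph nodes of mice labelled as carrying a dendritic-cell knockout of the clock gene Bmal1 and injected with melanoma cells were compared with the same sorted cells from sham-injected mice, at both timepoints of the light phase. The 12 libraries of this comparison were chosen by their labels from the 44 of the series. They were the 6 libraries labelled KO, 3 at ZT3 and 3 at ZT9, and the 6 sham libraries, again 3 at ZT3 and 3 at ZT9. Zeitgeber time (ZT) counts hours from lights on.

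Every library came from 1 mouse. The libraries labelled KO were from Clec9a-cre:Bmal1 flox mice that received B16-F10-OVA cells, a mouse melanoma line that expresses ovalbumin. In the study's methods these mice are homozygous for the floxed allele and heterozygous for the cre. Clec9a is a gene of conventional dendritic cells (DCs) and their precursors. The sham libraries were from mice labelled WT that received PBS. The methods describe all mice as females of 8 to 12 weeks and give 24 h between injection and collection of the draining inguinal lymph node. CD45+CD11c+MHCII high cells, the gate that holds migratory DCs, were sorted in both arms. The arms therefore differ in genotype label and in tumour cells at once, and effects of the genotype and of the tumour cells cannot be told apart in this contrast. For this reason the 10 light-phase libraries of control mice given the same tumour cells (5 at ZT3, 5 at ZT9) are shown beside it. The study names 2 independent experiments, which the labels do not assign to mice, so the p-values measure the spread between these mice.

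BMAL1, the protein of Arntl, pairs with CLOCK and drives transcription from E-box sequences. Among its targets are the period, cryptochrome and REV-ERB genes, whose products repress the same loop, and output factors such as DBP. DCs take up antigen in the skin, mature, and move to the draining node by following CCR7 ligands, where they present antigen on MHC molecules and give co-stimulatory signals to T cells. Type 1 and type 2 conventional DCs (cDC1 and cDC2) differ in their surface lectins and transcription factors. Plasmacytoid DCs (pDCs), monocytes and macrophages can share part of the CD11c and MHC class II phenotype.

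Expression was measured by RNA-seq in CPM, read counts scaled to a common library size, and was tested as log2(CPM + 0.5) over 11963 genes with limma, with the timepoint as a covariate. A gene is called when its Benjamini–Hochberg adjusted p over all genes tested is under 0.05. Differences are given as labelled KO with tumour cells minus sham on this scale, which understates the change of genes with low CPM. The 12 libraries held 28003328 to 55799163 reads on genes, so that 1 read was worth at most 0.0357 CPM. Replicates of one group and timepoint correlated with r from 0.953 to 0.971 across genes, and none was a copy of another.

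The promoters of 3 genes are shown because the results below turn on the genes behind them, an interferon-stimulated gene and an interferon regulator that were called lower and a period gene that was not called. The sequences are those of RefSeq on GRCm38.p6 from 250 bases before to 50 bases after an annotated start, 5′ to 3′ on the strand of the gene. Capitals mark an interferon-response element core in Trim30a (GAAA, any 2 bases, GAAA) and the E-box CACGTG in Per1, and both motifs were searched on both strands.
Trim30a, chr7:104465144-104465443, minus strand: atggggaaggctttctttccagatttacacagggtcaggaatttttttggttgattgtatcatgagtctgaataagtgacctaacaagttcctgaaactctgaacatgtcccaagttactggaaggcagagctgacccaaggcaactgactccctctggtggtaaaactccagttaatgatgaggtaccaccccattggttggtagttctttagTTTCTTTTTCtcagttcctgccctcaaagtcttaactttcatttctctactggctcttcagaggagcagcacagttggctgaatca
Irf7, chr7:141266375-141266674, minus strand: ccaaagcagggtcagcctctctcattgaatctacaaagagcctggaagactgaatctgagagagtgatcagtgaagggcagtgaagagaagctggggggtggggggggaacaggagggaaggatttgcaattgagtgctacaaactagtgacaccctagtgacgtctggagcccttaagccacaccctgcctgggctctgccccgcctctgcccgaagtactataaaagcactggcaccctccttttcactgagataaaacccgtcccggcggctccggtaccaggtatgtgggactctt
Per1, chr11:69098699-69098998, plus strand: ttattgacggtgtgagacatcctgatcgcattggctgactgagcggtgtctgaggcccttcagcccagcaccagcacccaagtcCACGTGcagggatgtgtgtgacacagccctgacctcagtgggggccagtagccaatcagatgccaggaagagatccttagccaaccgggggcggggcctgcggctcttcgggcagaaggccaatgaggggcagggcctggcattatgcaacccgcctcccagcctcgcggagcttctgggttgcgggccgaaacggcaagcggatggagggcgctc
Trim30a holds 1 match, read on the opposite strand, that starts 36 bases before the start, and Per1 holds 1 E-box, 166 bases before it. The table lists a second start for both genes, and its window holds 1 match in Trim30a and none in Per1. The window of Irf7 holds none. The interferon-response core occurs in 3.95% of the promoters of the genes tested and in 3.99% of all promoters of the RefSeq table, while CACGTG occurs in 11.5% and 8.09%, respectively. A match describes these letters and is not evidence of binding.

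Arntl itself (chr7:113178471-113314126, GRCm38) was not called between the arms. In the libraries labelled KO it was at 20.8, 23.9 and 14.8 CPM at ZT3 and at 18.4, 11.5 and 16.8 CPM at ZT9. Sham libraries had 27.3, 25.7 and 22 CPM at ZT3 and 14.2, 23.0 and 21.7 CPM at ZT9. The arms overlapped, and the difference was -0.34 (standard error 0.17, adjusted p = 0.37). Since the table holds 1 value per gene, reads of the floxed exon cannot be separated and the deletion was not checked, so the libraries are named by their label throughout.

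At the level of all genes, 31 were called higher (0.259% of those tested) and 172 lower (1.44%) in the libraries labelled KO with tumour cells than in sham libraries, 203 in all (1.7%). Changes of at least 2-fold accounted for 10 of the higher genes (0.0836%) and 86 of the lower ones (0.719%). An unadjusted p under 0.05 was reached by 1924 genes (16.1%), of which 551 were higher (4.61%) and 1373 lower (11.5%), and the median difference over all genes was -0.04. Between the arms the values of 23 of the 31 higher and 116 of the 172 lower genes did not overlap, against 69 genes (0.577%) that were higher in every labelled KO library and 192 (1.6%) that were lower in every one among all genes tested. Fitted separately, ZT3 gave 5 higher (0.0418%) and 9 lower genes (0.0752%) and ZT9 gave 8 (0.0669%) and 66 (0.552%). The medians of the lower genes were -0.86 at ZT3 and -1.09 at ZT9, those of the higher genes 0.77 and 0.73. The number of calls depended on single mice. Without sham ZT3 replicate 3, 60 genes were lower and 47 changed at least 2-fold, and without labelled KO ZT9 replicate 1, 12 were higher.

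The 3 largest increases lay on chromosome 7, the chromosome of Arntl, and a switch among closely related TRIM genes stood out. TRIM proteins are ubiquitin ligases, many of them induced by interferon. Trim34b (chr7:104329471-104336617) was at 7.67, 10.9 and 14.2 CPM at ZT3 and 11.1, 9.13 and 9.22 CPM at ZT9 in the libraries labelled KO, and was listed at 0 in all 6 sham libraries (adjusted p = 1.54e-08). In control tumour libraries it was at 0 to 0.404 CPM. Its neighbour Trim12a (chr7:104299893-104315558) had 0.619, 0 and 0.200 CPM at ZT3 and 0.207, 0.122 and 0.0943 CPM at ZT9, against 27.1, 24.5 and 26.3 CPM and 19.2, 29.0 and 30.1 CPM in sham libraries. Nothing overlapped, and control tumour libraries, at 17.4 to 37.7 CPM, lay with the sham ones. The difference was -5.26 (standard error 0.19, adjusted p = 5.59e-08).

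Trim30d (chr7:104470014-104507853) followed the same pattern, at 0 to 2.17 CPM (median 0.155) in the libraries labelled KO and 15.6 to 37.4 CPM (median 21.9) in sham libraries, a difference of -4.87 (standard error 0.36, adjusted p = 7.68e-05). Trim34a (chr7:104244448-104262244) fell from 50.4 ± 8.75 CPM (SD, n = 6) in sham libraries to 16.1 ± 2.01 CPM (SD, n = 6), a difference of -1.60 (standard error 0.13, adjusted p = 0.000155). These genes are related copies, and in 54.5% to 95.5% of the 44 libraries their values are not a whole number of reads, so the division of reads among Trim12a, Trim30a, Trim30d, Trim34a and Trim34b is uncertain.

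Art2b (chr7:101575729-101585591), which encodes an ADP-ribosyltransferase of the cell surface, was at 28.1, 32.2 and 25.0 CPM at ZT3 and 25.5, 26 and 25.4 CPM at ZT9 in the libraries labelled KO. Sham libraries had 0.755 to 2.80 CPM and control tumour libraries 1.16 to 2.85 CPM. The arms did not overlap (difference 3.43, standard error 0.21, adjusted p = 1.4e-05), although its values were not whole reads in 100% of libraries. Ppfibp2 (chr7:107595047-107748583), a liprin scaffold gene, rose from 26.1 ± 3.51 CPM to 80.6 ± 12.6 CPM (SD, n = 6 each), a difference of 1.604 (standard error 0.13, adjusted p = 0.000139). Hddc3 (chr7:80343075-80346716), a phosphohydrolase gene, rose from 1.76 ± 0.742 CPM to 10.2 ± 1.54 CPM (SD, n = 6 each), by 2.29 (standard error 0.21, adjusted p = 0.000342). For both genes control tumour libraries lay at the sham level, with 23.9 ± 7.74 CPM and 2.15 ± 1.14 CPM (SD, n = 10), respectively.

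**Figure D1:**
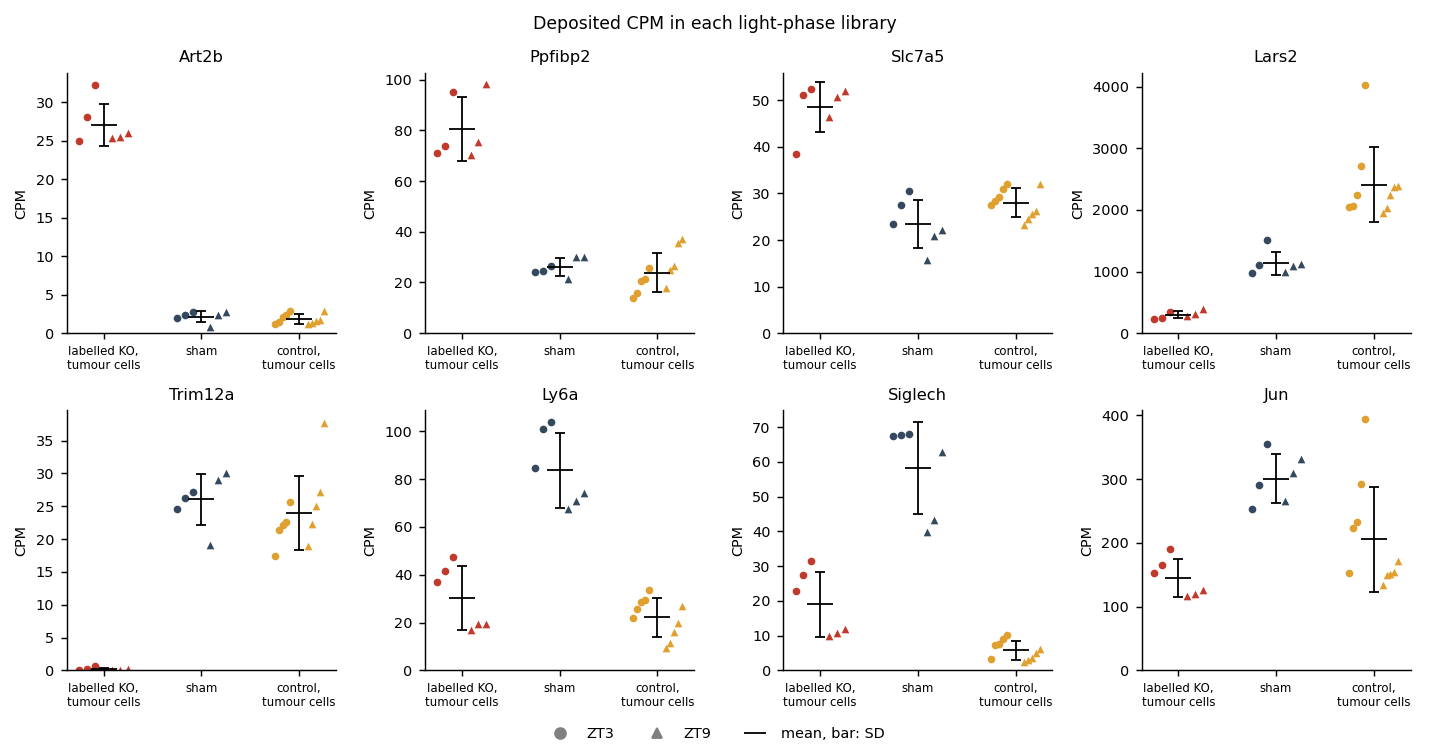
CPM of 8 genes (y axis) in each light-phase library labelled KO with tumour cells, sham, or control with tumour cells (x axis), with circles for ZT3, triangles for ZT9 and bars for the mean and SD. Art2b and Ppfibp2 were high, and Trim12a near 0, only in the libraries labelled KO, whereas Siglech and Ly6a were lower in both groups with tumour cells than in sham libraries.

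Chromosome 7 as a whole held 938 genes tested, of which 8 were called higher and 24 lower (3.41%). On each of the other chromosomes 0.894% to 2.82% of genes were called, and 1.55% on all of them together. Within 20 Mb of the start of Arntl, 4 of 285 genes were higher and 13 lower (5.96%), and farther away on the same chromosome 4 of 653 were higher and 11 lower (2.3%). The median difference was -0.05 near Arntl and -0.03 farther away. The calls near Arntl include Trim30a, Cox6a2 and Lat, and those farther away Siglech, Klk1 and Irf7. These genes are counted again in the lists below, so the counts are not independent. Dkk3, which encodes a secreted regulator of the Wnt pathway family and starts 1.06 Mb from Arntl, was at 0 to 1.59 CPM (median 0.432) in the libraries labelled KO, against 3.82 to 11.2 CPM (median 6.68) in sham libraries and 0.133 to 3.37 CPM (median 1.65) in control tumour libraries. The gene was named with its values known (difference -2.90, standard error 0.38, adjusted p = 0.00556).

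**Figure D2:**
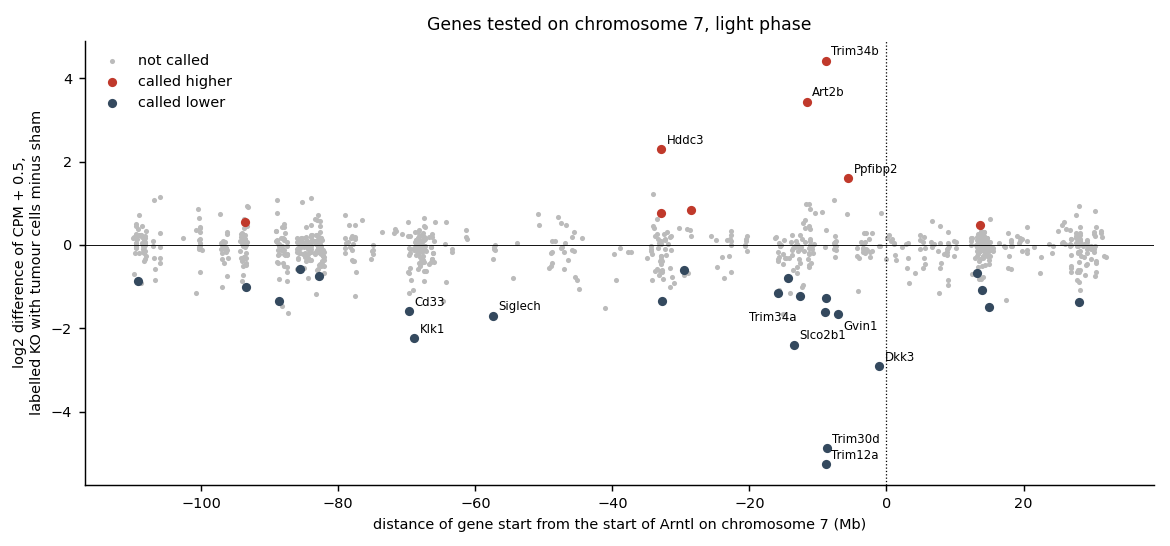
Log2 difference of CPM + 0.5, labelled KO with tumour cells minus sham (y axis), against the distance of each gene's start from that of Arntl in Mb (x axis) for the 938 genes tested on chromosome 7. The 8 genes called higher and 24 called lower are coloured, and those changed by at least 1.5 are named.

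Away from chromosome 7, the gene with the smallest p among those higher was Slc7a5 (chr8:121881146-121907686), the light chain of the large neutral amino acid transporter LAT1. It was at 38.4, 52.5 and 51.2 CPM at ZT3 and 50.6, 46.4 and 52.0 CPM at ZT9 in the libraries labelled KO, and at 27.5, 30.6 and 23.5 CPM and 22.1, 15.8 and 20.8 CPM in sham libraries. Every labelled KO library was above every sham library (difference 1.06, standard error 0.15, adjusted p = 0.00712), and control tumour libraries had 23.1 to 32.0 CPM. Ass1, the argininosuccinate synthase, rose by 0.65 (standard error 0.09, adjusted p = 0.00782), from 43.97 ± 3.27 CPM to 69.6 ± 8.61 CPM (SD, n = 6 each). Ngrn, a chromosome 7 gene near Hddc3 that encodes a mitochondrial protein, rose by 0.77 (standard error 0.12, adjusted p = 0.0109).

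The other genes that led the increases were of low expression. Hyal3, of the hyaluronidase family, was at 1.01 to 3.89 CPM (median 1.89) against 0 to 0.678 CPM (median 0.282) in sham libraries (difference 1.74, adjusted p = 0.0153). Map2, a microtubule-associated protein gene, was at 1.498 to 5.23 CPM against 0.25 to 1.97 CPM (1.25, adjusted p = 0.0179). In control tumour libraries, Hyal3 at 0.475 to 3.36 CPM and Map2 at 1.69 to 5.91 CPM overlapped the libraries labelled KO. Tmem45b, a membrane protein gene, was at 7.26 to 12 CPM against 2.11 to 6.48 CPM (1.21, adjusted p = 0.0179, but 0.051 without labelled KO ZT9 replicate 1). Spock1 (1.45, adjusted p = 0.0478) and Cdc42bpg (1.08, adjusted p = 0.0491) overlapped between the arms and lost their calls in 10 and 11 of the 12 fits that left out 1 library.

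Lars2 (chr9:123366927-123462675), the mitochondrial leucyl-tRNA synthetase, was the most abundant of the leading genes that fell. It was at 336, 247 and 234 CPM at ZT3 and 318, 388 and 279.7 CPM at ZT9 in the libraries labelled KO, and at 1103, 976 and 1507 CPM and 1092, 992 and 1119.8 CPM in sham libraries. The difference was -1.92 (standard error 0.15, adjusted p = 0.000139). Control tumour libraries were on the other side of sham, at 1959 to 4030.5 CPM with a median of 2246 CPM, 1.07 above sham (adjusted p = 1.7e-05). Ncs1, a neuronal calcium sensor gene, was listed at 0 in 5 of 6 libraries labelled KO and at 0.0896 CPM in the other, against 0.821 to 3.04 CPM in sham libraries and 0.489 to 5.62 CPM in control tumour libraries (adjusted p = 0.000757).

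For Ly6a, Timd4 and Ccr8, also among the leading decreases, control tumour libraries were below sham libraries too. Ly6a, which encodes the surface protein Sca-1, was at 47.3, 36.9 and 41.4 CPM at ZT3 and 16.7, 19.4 and 19.4 CPM at ZT9 in the libraries labelled KO. In sham libraries it was at 101.2, 84.8 and 104 CPM and at 67.3, 74.0 and 70.7 CPM, with no overlap (difference -1.55, standard error 0.14, adjusted p = 0.000366). Its values were fractions of reads in 100% of libraries. Timd4, a receptor for phosphatidylserine on dying cells, was at 15.9 to 24.6 CPM (median 17.4) against 32.7 to 60.4 CPM (median 49.6), a difference of -1.31 (standard error 0.16, adjusted p = 0.00431). Ccr8, a chemokine receptor gene, was at 6.99 to 16.0 CPM (median 10.4) against 20.9 to 34 CPM (median 25.6), also -1.31 (standard error 0.16, adjusted p = 0.00431). Control tumour libraries had medians of 23.6 CPM for Ly6a, 11.7 CPM for Timd4 and 4.90 CPM for Ccr8.

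The clock genes showed no called change. Of 18 tested (5 activators, 9 repressors and 4 outputs), 17 had a difference below 0, with medians of -0.38, -0.29 and -0.43, respectively, against -0.04 over all genes and 57.1% of all genes below 0. Cry2 was the exception at 0.40 (adjusted p = 0.247). Nr1d1, which encodes the repressor REV-ERB alpha, came closest to a call, with 3.41, 2.01 and 4.59 CPM at ZT3 and 4.60, 2.96 and 5.24 CPM at ZT9 in the libraries labelled KO and 7.20, 11 and 5.71 CPM and 12.4, 5.81 and 18.3 CPM in sham libraries. Although the arms did not overlap, the difference of -1.23 (standard error 0.28) had an adjusted p of 0.0575. Control tumour libraries, at 0.426 to 5.46 CPM, lay below every sham library and overlapped the libraries labelled KO. Nr1d1 was called with an intensity trend, with array weights and, of the fits that left out a library, in that without sham ZT9 replicate 2. Control tumour minus sham gave medians of -0.87 for activators, -0.32 for repressors and -0.20 for outputs. In that contrast 3, 3 and 2 genes were called, respectively, against 23.7% of all genes. Labelled KO minus control tumour gave 0.48, -0.08 and -0.23, with 2, 1 and 2 genes called, against 15.4% of all genes.

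Per1, the period gene whose promoter is shown above, was at 4.36 to 12.3 CPM (median 5.54) in the libraries labelled KO and 7.58 to 14.9 CPM (median 13.5) in sham libraries, a difference of -0.76 (standard error 0.21, adjusted p = 0.105). Control tumour libraries had 6.80 to 20.5 CPM (median 15.2). Dbp, an output factor, was at 12.4, 16.9 and 19.3 CPM at ZT3 and 27.2, 35.3 and 30.2 CPM at ZT9 in the libraries labelled KO, and at 21.2, 22.8 and 28.3 CPM and 30.2, 38.4 and 41.5 CPM in sham libraries (-0.41, standard error 0.15, adjusted p = 0.198), although its values were not whole reads in 100% of libraries. In both arms all ZT9 values of Dbp were above all ZT3 values. The repressors Per2 (-0.40), Per3 (-0.21), Cry1 (-0.21), Nr1d2 (-0.14), Ciart (-0.48) and Bhlhe40 (-0.29), the activators Clock (-0.37), Npas2 (-0.38) and Rora (-0.50), and the outputs Tef (-0.17), Hlf (-0.61) and Nfil3 (-0.45) had adjusted p from 0.206 to 0.876. Of 16 clock genes with a RefSeq promoter, 5 (31.2%) held CACGTG, against 11.5% of the genes tested.

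Co-stimulatory genes did not pass the test either. In the B7 family, which signals to CD28 and PD-1 on T cells, none of 6 genes was called and the median was -0.01. Cd80 was at 14.8, 12.5 and 14.4 CPM at ZT3 and 9.46, 10.9 and 10.7 CPM at ZT9 in the libraries labelled KO, against 14.2, 10.5 and 11.5 CPM and 17.4, 20.8 and 14.8 CPM in sham libraries. The arms overlapped at ZT3, and at ZT9 all sham values were above all values of libraries labelled KO (difference 0.20 at ZT3, -0.73 at ZT9, -0.27 over both, standard error 0.18, adjusted p = 0.523). Cd86 was at 136 to 181 CPM against 114 to 231 CPM (-0.02, adjusted p = 0.978). Icosl (0.42, adjusted p = 0.188), Cd274 (0.35, adjusted p = 0.35), Pdcd1lg2 (0.00, adjusted p = 0.999) and Cd276 (-0.63, adjusted p = 0.63) were not called. Cd40, the receptor through which T cells license DCs, was at 883 to 956 CPM (median 916) in the libraries labelled KO and 651 to 843 CPM (median 717) in sham libraries. The arms did not overlap, yet the difference of 0.32 had an adjusted p of 0.0846.

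The sorted cells carried the markers of their gate in both arms. None of 9 DC identity genes was called, with a median of -0.02 and summed levels of 28500.2 to 34612 CPM in the libraries labelled KO and 26437 to 33839 CPM in sham libraries. Of 16 genes of the migratory DC programme, 14 were above 0, 6 of them at an unadjusted p under 0.05 (4.61% of all genes), and 0 were called (median 0.17). Fscn1, the actin-bundling fascin of mature DCs, was at 4869 to 6239.8 CPM (median 5774) against 3043 to 4912 CPM (median 3967), a difference of 0.50 with an adjusted p of 0.0689. Of 24 genes of cholesterol synthesis and uptake, a route that sterol-regulatory factors control as a unit, 22 were above 0 and 9 had an unadjusted p under 0.05, with a median of 0.31 and 0 called, whereas 57.1% of all genes were below 0 and 4.61% were higher at an unadjusted p under 0.05. Sqle, the squalene epoxidase, was above every sham library in every library labelled KO (80.0 to 139 CPM against 62.7 to 79.3 CPM, difference 0.46, adjusted p = 0.0777).

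Among genes of conventional DC subsets 3 were called, all lower. Of 11 cDC1 genes 10 were below 0, 9 of them at an unadjusted p under 0.05, and 2 were called (median -1.15). The shares over all genes were 57.1%, 11.5% and 1.44%, respectively. Naaa, a lysosomal amidase enriched in cDC1, was at 39.5, 45.6 and 35.4 CPM at ZT3 and 16.4, 18.1 and 17.7 CPM at ZT9 in the libraries labelled KO, and at 53.4 to 98.5 CPM (median 72.8) in sham libraries (difference -1.44, standard error 0.23, adjusted p = 0.0128). Clec9a, the cDC1 receptor for damaged cells whose promoter drives the cre, was at 0.0917 to 2.94 CPM (median 1.25) against 2.54 to 8.32 CPM (median 5.77), with -1.81 (standard error 0.40, adjusted p = 0.0495). It lost its call in 11 of 12 fits that left out a library. The summed level of the list was 787 to 1101 CPM in the libraries labelled KO, 1055 to 1358 CPM in sham libraries and 794 to 1063 CPM in control tumour libraries. In bulk samples fewer cells of a type and less RNA per cell cannot be told apart. The medians of the pDC (-1.60), monocyte and macrophage (-0.99), NK cell (-0.88) and T cell (-0.46) lists were below 0 too. Their part in these differences was not tested.

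Of 8 cDC2 genes, 1 was called lower (1.44% of all genes). Cd209a, which encodes a DC-SIGN lectin, was at 38.2, 42.5 and 35.3 CPM at ZT3 and 3.94, 4.55 and 10.5 CPM at ZT9 in the libraries labelled KO. Sham libraries had 58.2, 72.8 and 90.0 CPM and 38.1, 57.4 and 27.6 CPM (difference -1.78, standard error 0.36, adjusted p = 0.0359). The call was lost in 8 of 12 fits that left out a library. For the cDC2 and MHC class II lists too, the part of the pDC, monocyte, NK cell and T cell lists was not tested. In the MHC class II pathway H2-Ob, the beta chain of the DO molecule that restrains peptide loading, was called (-0.86, standard error 0.17, adjusted p = 0.0359, lost in 10 of 12 such fits), as 1 of 13 genes with a median of -0.24, again against 1.44% of all genes. None of 11 MHC class I genes was called and their median was -0.003. None of 82 cytosolic (median -0.02) or 74 mitochondrial (median -0.01) ribosomal protein genes was called. Control tumour minus sham gave a median of -1.72 for cDC2 genes, with 5 of 8 called. For MHC class II genes it gave -0.40, with 9 of 13 called, against 23.7% of all genes.

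The strongest shift of a whole list was in markers of plasmacytoid DCs. All 6 genes tested were below 0 at an unadjusted p under 0.05 and 5 were called lower (median -1.60, against -0.04 over all genes and 1.44% of all genes called lower). Siglech (chr7:55768154-55779448), a sialic acid-binding lectin that marks these cells in mice, was at 31.4, 22.9 and 27.4 CPM at ZT3 and 11.9, 9.96 and 10.7 CPM at ZT9 in the libraries labelled KO. Sham libraries had 67.3, 68.1 and 67.8 CPM and 43.3, 62.9 and 39.8 CPM, with no overlap (difference -1.70, standard error 0.17, adjusted p = 0.000757). Ccr9, a chemokine receptor, was at 1.78 to 13.3 CPM (median 10.02) against 18 to 25.4 CPM (median 24.6), with -1.72 (standard error 0.35, adjusted p = 0.037), and it was called in 2 of 12 fits that left out a library. Cox6a2, a cytochrome oxidase subunit also counted among oxidative phosphorylation genes, differed by -1.49 (adjusted p = 0.00573), Ly6d by -1.14 (adjusted p = 0.00782) and Klk1 by -2.24 (adjusted p = 0.0335, lost in 8 of 12 such fits). The summed level of the 6 markers was 76.5 to 169 CPM, against 186 to 282 CPM in sham libraries and 73.3 to 96.1 CPM in control tumour libraries. The number called was 3 to 5 when each library was left out, and it was 3 without KO ZT3 replicate 2, KO ZT9 replicate 1, sham ZT3 replicates 2 and 3 or any of the sham ZT9 replicates.

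Of 15 monocyte and macrophage genes, 9 were called lower and 14 were below 0 (median -0.99), against 1.44% and 57.1% of all genes. Ly6c2, a surface marker of inflammatory monocytes, was at 37.1, 36.4 and 31.2 CPM at ZT3 and 11.5, 23.2 and 12.6 CPM at ZT9 in the libraries labelled KO, and at 84.3, 84.1 and 78.1 CPM and 70.6, 57.0 and 48.2 CPM in sham libraries. No value overlapped (difference -1.57, standard error 0.19, adjusted p = 0.00431), although its values were not whole reads in 100% of libraries. Csf1r, the receptor for the growth factor of macrophages, was at 23.6 to 58.3 CPM (median 39.2) against 66.0 to 99.1 CPM (median 75.5), with -1.05 (standard error 0.14, adjusted p = 0.00654). Cd68, a lysosomal protein of macrophages, was at 45.2 to 71.9 CPM against 75.7 to 132 CPM (-0.83, adjusted p = 0.00955). The summed level was 958 to 2033 CPM, against 2417 to 2856 CPM in sham libraries and 468 to 1187 CPM in control tumour libraries. In the libraries labelled KO the 3 ZT9 sums, at 958 to 1263 CPM, were all below the 3 ZT3 sums, at 1676 to 2033 CPM. Between 4 and 9 genes were called when each library was left out, with 4 without sham ZT9 replicate 3 and 5 without sham ZT3 replicate 3 or KO ZT9 replicate 1.

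All 23 T cell genes were below 0, and 5 were called lower (median -0.46), where 57.1% of all genes were below 0 and 1.44% called lower. Cd4 was at 30.2 to 54.7 CPM (median 49.0) against 71.8 to 99.0 CPM (median 79.4), with -0.91 (standard error 0.12, adjusted p = 0.0069). Cd28, the receptor of the B7 ligands, was at 11.3 to 21.5 CPM against 24.6 to 35.9 CPM (-0.93, adjusted p = 0.0128), and Cd2 (-0.73), Lat (-0.66) and Cd3g (-0.68) were called with them. Of the 12 fits that left out a library, Lat kept its call in 7 and Cd3g in 2. The summed level was 910.1 to 1196 CPM in the libraries labelled KO, 1222 to 1565 CPM in sham libraries and 756 to 1105 CPM in control tumour libraries. Without Il7r, the most abundant gene of the list, the T cell sums of the arms overlapped, whereas the pDC and monocyte sums stayed apart without theirs. Only 2 of these genes were called without sham ZT3 replicate 3 or sham ZT9 replicate 3, 3 without sham ZT3 replicate 1, sham ZT9 replicate 2 or KO ZT9 replicate 1, and 9 without KO ZT3 replicate 1. All 10 NK cell genes were below 0 with 0 called (7 at an unadjusted p under 0.05, as were 11.5% of all genes, median -0.88). Of 12 B cell genes 1 was called, Fcrla (-1.20, adjusted p = 0.0485), which lost its call in 11 of 12 fits that left out a library. The B cell sum was 70.5 to 156 CPM in the libraries labelled KO and 95.9 to 156 CPM in sham libraries, and of the genes measured Pax5 alone was under 1 CPM in all 12 libraries. Of the melanoma genes, Tyr, Tyrp1, Dct and Mlana were under 1 CPM in all 12 libraries.

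**Figure D3:**
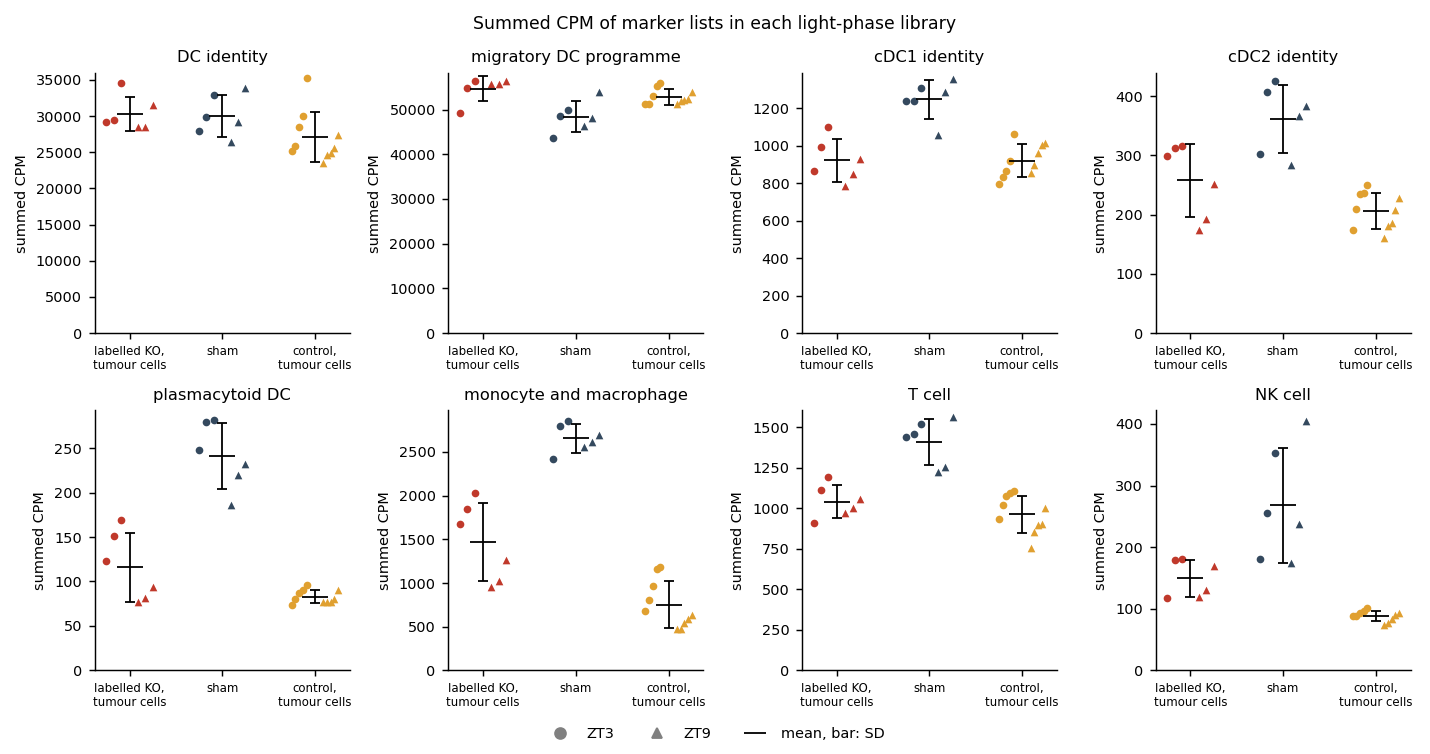
Summed CPM of the genes of 8 marker lists (y axis) in each light-phase library labelled KO with tumour cells, sham, or control with tumour cells (x axis), with circles for ZT3, triangles for ZT9 and bars for the mean and SD. The sums for pDCs, monocytes and macrophages, and T cells do not overlap between libraries labelled KO and sham libraries, that of T cells only with Il7r included, whereas those for DC identity do.

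Of 43 interferon-stimulated genes 4 were called lower. A difference below 0 was found for 35, 18 of them at an unadjusted p under 0.05, and the median was -0.40. Over all genes tested 1.44% were called lower, 57.1% were below 0 and 11.5% were lower at an unadjusted p under 0.05. Irf7 (chr7:141263183-141266499), the regulator that amplifies type I interferon responses, was at 26.2, 39.2 and 36.6 CPM at ZT3 and 15.7, 15.1 and 9.89 CPM at ZT9 in the libraries labelled KO. Sham libraries had 54.9, 105 and 65.4 CPM and 45.4, 49.1 and 33.5 CPM. Within each timepoint the arms did not overlap (difference -1.36, standard error 0.21, adjusted p = 0.0113). Rtp4, an interferon-induced transporter protein gene, was at 9.34, 12 and 15.5 CPM at ZT3 and 3.43, 3.88 and 3.27 CPM at ZT9 against 18.6, 24 and 25.5 CPM and 12.6, 16.1 and 12.1 CPM (-1.34, standard error 0.19, adjusted p = 0.00887). Trim30a, at 19.0 to 38.8 CPM against 43.0 to 103 CPM, differed by -1.27 (standard error 0.22, adjusted p = 0.0211) and Ly6e by -0.78 (standard error 0.15, adjusted p = 0.0334). Like Irf7, Trim30a lies on chromosome 7, and the division of reads between it and the related TRIM genes is uncertain. Irf7 and Rtp4 kept their calls when each library was left out, Ly6e lost its call in 9 of 12 such fits, and Trim30a lost it in those without sham ZT3 replicate 3 and sham ZT9 replicate 3. Of 33 interferon-stimulated genes with a RefSeq promoter, 21 (63.6%) held the interferon-response core, as did 15 of 132 genes called lower (11.4%) and 2 of 28 called higher (7.14%), against 3.95% of the genes tested. The pDC, monocyte and T cell sums above moved the same way, and their part in these differences was not tested.

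Immediate early genes, which cell stimulation induces within minutes, held 3 called genes of 18, each of them lower. All 18 were below 0, 13 of them at an unadjusted p under 0.05 (median -0.49), against 1.44% of all genes called lower and 11.5% lower at an unadjusted p under 0.05. The pDC, monocyte and T cell sums were lower in the same libraries, and their part in these values was not tested. Jun, a subunit of AP-1, was at 191, 153 and 166 CPM at ZT3 and 119.9, 116 and 126 CPM at ZT9 in the libraries labelled KO, and at 253, 291 and 355 CPM and 332, 266 and 309 CPM in sham libraries, with no overlap (difference -1.06, standard error 0.13, adjusted p = 0.00431). Its partner Fos was at 1056 to 1412 CPM (median 1304) against 1757 to 2421 CPM (median 1848), with -0.64 (standard error 0.11, adjusted p = 0.0179, and 0.051 without KO ZT9 replicate 1). Nr4a1, an orphan nuclear receptor gene induced by antigen receptor signals, differed by -0.96 (standard error 0.16, adjusted p = 0.0179, and 0.051 without sham ZT3 replicate 3). Control tumour libraries were lower in Fos, at 319 to 984 CPM, and in Nr4a1, at 32.2 to 185 CPM, than the libraries labelled KO, while for Jun, at 134 to 394 CPM, they overlapped both arms. None of 13 heat shock genes was called and their median was 0.01.

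Among chemokine ligands, 2 of 15 were called lower, against 1.44% of all genes. Here too the medians of the monocyte and macrophage list (-0.99) and of the NK cell list (-0.88) were below 0, and their part was not tested. Ccl4, a chemokine that attracts monocytes and T cells, was at 28.4, 26.6 and 42.0 CPM at ZT3 and 14.5, 24.9 and 13.8 CPM at ZT9 in the libraries labelled KO and at 96.6, 77.4 and 105 CPM and 56.9, 94.3 and 48.8 CPM in sham libraries (difference -1.70, standard error 0.21, adjusted p = 0.00431). Its relative Ccl3 was at 3.81 to 11.9 CPM against 11.5 to 24.3 CPM (-1.41, standard error 0.28, adjusted p = 0.0356, lost in 9 of 12 fits that left out a library). Control tumour libraries had 1.04 to 11.1 CPM of Ccl4 and 0.551 to 5.07 CPM of Ccl3. None of 12 cytokine genes (median -0.24) or 11 NF-kB genes (median 0.05) was called. Tlr8, an endosomal receptor for RNA, was listed at 0 in all 6 libraries labelled KO and at 0.207 to 2.11 CPM in sham libraries (adjusted p = 0.0213), as the single call among 14 Toll-like receptor genes. It was not called without sham ZT3 replicate 3, sham ZT9 replicate 3 or KO ZT9 replicate 1.

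Lists of proliferation and metabolism held few calls, beside 1.44% of all genes called lower, 0.259% called higher and 57.1% below 0. Of 25 cell cycle genes Rrm2, a subunit of ribonucleotide reductase (-0.86, adjusted p = 0.0295), and Ccnb1, a mitotic cyclin (-0.86, adjusted p = 0.0373), fell. Pfkp, a phosphofructokinase, was at 54.4 to 79.6 CPM against 86.0 to 104 CPM (-0.59, standard error 0.10, adjusted p = 0.0213), and all 15 glycolysis genes were below 0 (median -0.20). The pDC, monocyte and T cell sums were lower in the same libraries, and their part in the cell cycle and glycolysis values was not tested. Genes induced by the glucocorticoid receptor went both ways. Tsc22d3, which encodes GILZ, rose by 0.54 (standard error 0.12, adjusted p = 0.0469), whereas Klf9 fell by 0.61 (adjusted p = 0.023) and Zbtb16 fell by 0.82 (adjusted p = 0.0301). Rrm2, Ccnb1, Tsc22d3 and Zbtb16 each lost their call in 6 to 11 of 12 fits that left out a library, and Pfkp and Klf9 in 4. Those of Pfkp were the fits without sham ZT3 replicate 3, sham ZT9 replicates 2 and 3 and KO ZT9 replicate 1, and those of Klf9 without KO ZT3 replicate 3, sham ZT3 replicates 1 and 3 and KO ZT9 replicate 1. None of 13 unfolded protein response genes (median -0.01) or 7 mTOR and AKT genes (median -0.04) was called. Control tumour minus sham gave a median of -0.88 for cell cycle genes, with 19 of 25 called. For glycolysis it gave -0.38, with 9 of 15 called, against 23.7% of all genes.

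The remaining lists held 3 calls, all of them lower, against 1.44% of all genes called lower. Of 73 oxidative phosphorylation subunits only Cox6a2 was called (median 0.07), of 4 plasma cell genes Sdc1, a heparan sulphate proteoglycan (-1.28, adjusted p = 0.0431), and of 5 granulocyte genes S100a9, a calcium-binding protein of neutrophils, which was listed at 0 in 5 of 6 libraries labelled KO (-1.46, adjusted p = 0.0276). Both were called in some but not all fits that left out a library, Sdc1 losing its call in 9 and S100a9 in 7. Of the 4 plasma cell genes 2 were above 0 and 2 below (median 0.02). The plasma cell sums overlapped, at 57.3 to 127 CPM in the libraries labelled KO and 62.6 to 102 CPM in sham libraries. All 5 granulocyte genes were below 0 (median -0.99). None was called of 6 TNF family co-stimulators and Cd83 (median -0.19), 3 Langerhans cell genes (0.39), 4 stromal and endothelial genes (-0.54), 2 erythroid genes (0.38), 1 keratinocyte gene (0.12) or 2 melanoma genes (-0.77).

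**Figure D4:**
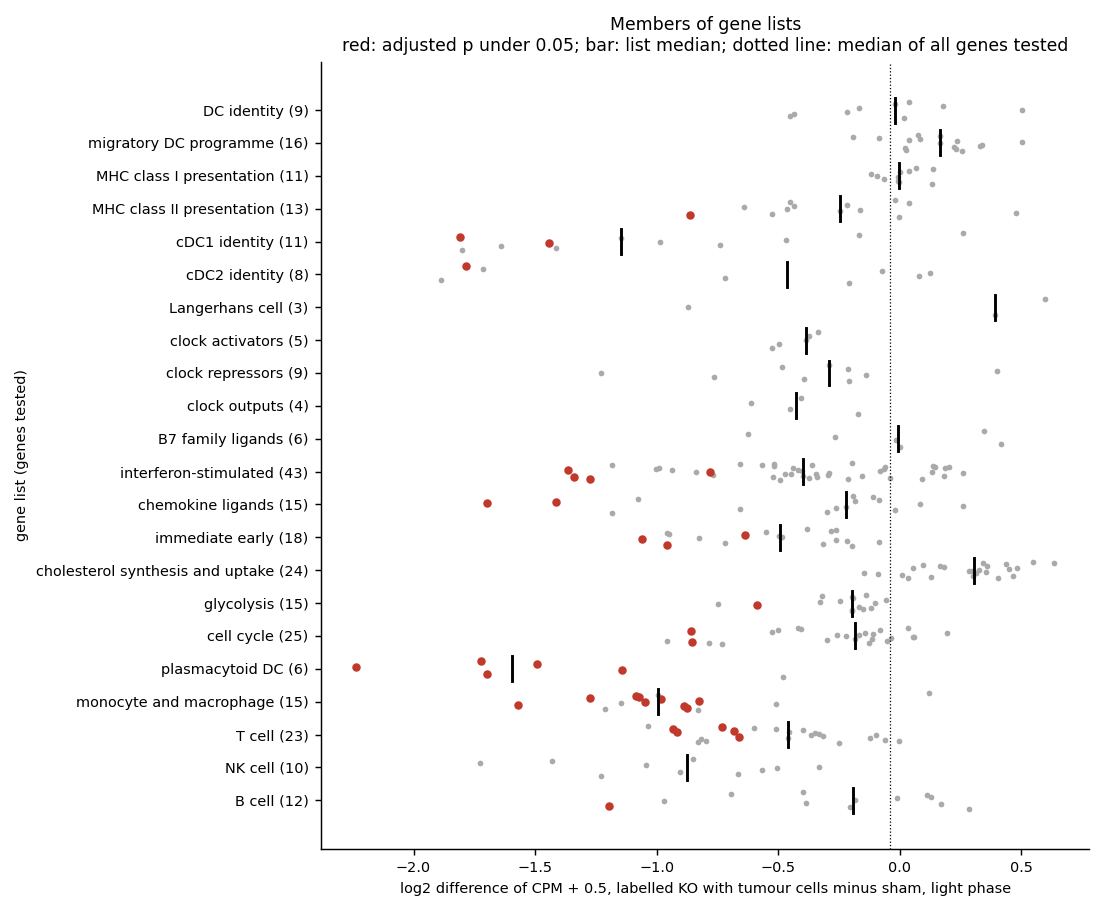
Log2 difference of CPM + 0.5, labelled KO with tumour cells minus sham (x axis), of each gene tested in 22 lists (y axis, number of genes in brackets), with called genes in red, a bar at the median of each list and a dotted line at the median of all genes tested. The medians of the pDC and the monocyte and macrophage lists lie at -1.60 and -0.99, and that of the cholesterol list at 0.31.

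Whether the difference changed between ZT3 and ZT9 was tested as an interaction. It was called for 0 genes by limma, with 571 genes (4.77%) at an unadjusted p under 0.05, among them 25 of the 172 lower and 2 of the 31 higher genes. The smallest p belonged to Itpr1, an intracellular calcium channel gene, at 7.40, 7.35 and 5.79 CPM at ZT3 and 1.55, 1.47 and 1.12 CPM at ZT9 in the libraries labelled KO and at 4.43 to 7.25 CPM in all sham libraries. Its difference was 0.12 at ZT3 and -1.73 at ZT9 (interaction -1.85, standard error 0.27, adjusted p = 0.548). Sdr42e1 (interaction -1.92) and Trim17 (1.48) followed, both with an adjusted p of 0.832.

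The same comparison at ZT15 and ZT21 used 12 other libraries, 6 labelled KO and 6 sham. There 202 genes were higher (1.69%) and 49 lower (0.41%), 251 in all (2.1%). Scaling by median-of-ratios moved this split to 86 higher and 90 lower, since the median of all genes was 0.11 as deposited and 0.00 after that scaling. Of the 31 genes higher in the light phase, 24 were above 0 in the dark phase and 9 were called higher there, 29.0% of the light and 4.46% of the dark calls. Of the 172 lower genes 136 were below 0 in the dark phase, where 39.5% of all genes were, and 12 were called lower, 6.98% of the light and 24.5% of the dark calls. No gene was called in opposite directions. The number of dark calls ran from 33 without KO ZT15 replicate 3 to 1006 without KO ZT21 replicate 3, and the genes shared from 7 to 10 higher and from 5 to 22 lower.

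Chromosome 7 held 5 of the 9 shared higher genes and 7 of the 12 shared lower ones, from 8 and 24 called there in the light phase. On the other chromosomes 4 of 23 and 5 of 148 were shared. Trim34b differed by 3.99, Art2b by 2.85, Ppfibp2 by 1.86, Hddc3 by 2.39, Trim12a by -5.02, Trim30d by -4.29 and Trim34a by -1.73 in the dark phase, with adjusted p from 1.43e-05 to 0.00427. Outside chromosome 7, Lars2 was at 104.6 to 254 CPM (median 197) in dark-phase libraries labelled KO and 1074 to 1558 CPM in dark-phase sham libraries (-2.83, standard error 0.19, adjusted p = 2.93e-05). Slc7a5 differed by 1.43 (standard error 0.21, adjusted p = 0.0134) and Tsc22d3 by 1.17 (standard error 0.13, adjusted p = 0.00186). Clec9a was called lower in both phases (-1.95 in the dark phase, adjusted p = 0.0138).

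Jun, Irf7, Ly6a and Siglech, all called lower in the light phase, were not called in the dark phase. Jun was at 131 to 276 CPM (median 201) in dark-phase libraries labelled KO and 151 to 263 CPM (median 192) in sham libraries, a difference of -0.03 (adjusted p = 0.925). Irf7 differed by -0.07 (adjusted p = 0.935), Ly6a by -0.69 (adjusted p = 0.181) and Siglech by -0.84 (adjusted p = 0.0731). The test of the difference between phases called 0 genes by limma (28 with an intensity trend, 3 with ordinary least squares and 3 at a mean of at least 10 CPM), with 2125 genes (17.8%) at an unadjusted p under 0.05, among them 80 of the 172 lower and 9 of the 31 higher genes. The adjusted p of this interaction was 0.111 for Jun and 0.216 for Irf7. It was smallest for Slc29a1, a nucleoside transporter gene (-0.87 in the light and 0.28 in the dark phase, adjusted p = 0.092), and Tet2, a DNA demethylation enzyme gene (-0.12 and 0.84, adjusted p = 0.092).

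**Figure D5:**
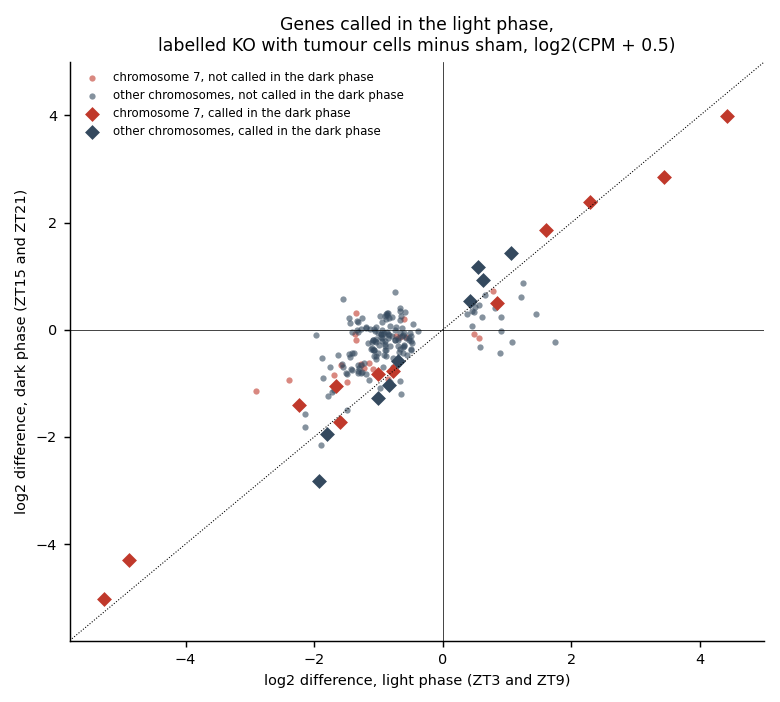
Log2 difference of CPM + 0.5, labelled KO with tumour cells minus sham, in the dark phase (y axis) against the light phase (x axis) for the 203 genes called in the light phase, with chromosome 7 in red and diamonds for genes also called in the dark phase. The dotted line marks equal differences. Trim34b and Trim12a lie near it, whereas Dkk3, at -2.90 in the light and -1.14 in the dark phase, does not.

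Set beside control tumour libraries, which share the sham libraries with this comparison, the genes fell into different patterns. Control tumour libraries differed from sham libraries in 2840 genes (23.7%; 881 higher, 7.36%, and 1959 lower, 16.4%) and libraries labelled KO from control tumour libraries in 1837 (15.4%; 1083 higher, 9.05%, and 754 lower, 6.3%) when the 22 light-phase libraries were fitted together. Median-of-ratios scaling gave 1201 higher and 1636 lower in the first and 924 higher and 944 lower in the second. Control tumour libraries held 21126495 to 27557466 reads on genes, fewer than every light-phase library labelled KO or sham. They also numbered 10, against 6 in each of those groups. The part of depth and of group size in these counts and differences was not tested. Trim12a differed by -0.13 between control tumour and sham libraries and by -5.13 between libraries labelled KO and control tumour libraries, and Art2b by -0.15 and 3.59. Siglech differed by -3.34 and 1.64, Ccl4 by -4.10 and 2.40, Csf1r by -2.002 and 0.96 and Fos by -1.82 and 1.19, so that the libraries labelled KO lay between the other groups, with adjusted p from 8.5e-10 to 0.0032. Lars2 differed by 1.07 and -2.99. Irf7 differed by -0.80 (adjusted p = 0.023) and -0.56 (adjusted p = 0.13), and Jun by -0.63 (adjusted p = 0.007) and -0.43 (adjusted p = 0.074).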

How the data were processed

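RNA-seq libraries (SMART-Seq v4 and Nextera XT, single reads of 50 bases) were aligned to mm10 with STAR, counted on genes with HTSeq (0.9.1) and scaled by library size with edgeR by the authors, who deposited 1 table of CPM for 14699 genes in 44 libraries, each column adding up to 1000000. The methods state a filter of 1 CPM in at least 5 samples, applied here (11963 genes). Between 88.2% and 89.7% of values in the 12 libraries were whole reads (tolerance 0.001), so no count test was run. The planned test was linear, on log2(CPM + 0.5), with limma 3.58.1 in R 4.3.3, the timepoint as covariate, empirical Bayes moderation and Benjamini–Hochberg adjustment. It was tested on simulated data. The arms of the light phase, of each timepoint, of the dark phase and of 3 groups together were fitted separately, as were the interactions with timepoint and phase. Depth was 28003328 to 55799163 reads on genes. Precision is given by the standard errors.

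The libraries and the 39 gene lists were chosen with earlier results of these data known. Genes named are Arntl, the 12 with the smallest p in each direction (first those changed at least 2-fold), up to 4 per list, every clock and B7 gene and up to 3 per interaction. A few genes that this rule names are not reported here. Fits were repeated with other pseudocounts (0.1 and 1), scaling by median-of-ratios, no filter, a filter at 10 CPM on average, least squares without moderation, limma's intensity trend or array weights, replicate number as block, a spread shared by all 44 libraries, and without each library in turn. Gene coordinates and promoters are those of RefSeq (GRCm38.p6). Summaries used pandas 2.3.3 and numpy 2.4.6, and plots matplotlib 3.10.9 (Python 3.11.15).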

Additional observations from a re-analysis of the deposited data

Results flagged for a closer look

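In 7 of 50 groups of 5 control tumour libraries, 1 library stood apart from the others in a leading gene, by the ratio of its gap to the range of the group (Dixon's test at the 95% level). Chance alone marks about 1 group in 20. Trim34b was at 0.404 CPM in control tumour ZT9 replicate 5, against 0 to 0.0702 CPM in the other 4. Control tumour ZT9 replicate 1 was apart in 3 genes, with 2.84 CPM of Art2b against 1.26 to 1.71 CPM, 19.3 CPM of Timd4 against 9.02 to 11.6 CPM and 6.58 CPM of Ccl4 against 1.04 to 1.90 CPM. Map2 was at 5.91 CPM in ZT9 replicate 3, against 1.80 to 2.63 CPM, and Ncs1 at 5.62 CPM in ZT9 replicate 2, against 1.28 to 2.28 CPM. Spock1 was at 0.755 CPM in ZT3 replicate 3, against 2.36 to 2.69 CPM. The labelled KO and sham groups, with 3 libraries per timepoint, were not examined in this way.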

How the results depend on the processing

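The counts of calls moved more than the directions. An intensity trend gave 78 higher, 348 lower and 148 genes changed at least 2-fold, the spread of all 44 libraries 59, 332 and 162, and ordinary least squares 92 lower and 55 changed at least 2-fold. The replicate block gave 17 higher genes, 84 in the dark phase and 1055 between libraries labelled KO and control tumour libraries. Libraries of the same number correlated with r from -0.0758 to 0.0884 in their deviations from the group means. Other pairs gave r from -0.0859 to 0.123. No pairing by number was seen, but 6 pairs of the same number are too few to exclude it. The dark phase gave 1106 genes at a mean of at least 10 CPM, 1153 with a trend and 892 with array weights. The interaction with timepoint called 1 gene over all genes of the table. The interaction with phase called 3 at a mean of at least 10 CPM, 3 with ordinary least squares and 28 with a trend.

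When each library was left out, 12 to 25 genes were higher, 60 to 175 lower and 47 to 99 changed at least 2-fold. The dark phase gave 33 to 1006, control tumour against sham 2352 to 3336, labelled KO against control tumour 1554 to 2419, and either interaction 0 to 1. Of 55 called genes named, 31 kept their call in every alternative in which they were tested. Cd86 turned to 0.01301 with median-of-ratios scaling, 0.00671 with array weights and between -0.1411 and 0.08392 when libraries were left out. Pdcd1lg2 turned to -0.07149 with array weights (-0.1046 to 0.09832). Per3 turned to 0.06791 without KO ZT3 replicate 3 (-0.5026 to 0.06791) and Nr1d2 to 0.0655 without sham ZT3 replicate 2 (-0.4296 to 0.0655). The cause was not tested. Values near 0, such as those of Tlr8 and Ncs1 and the lowest of Clec9a in the libraries labelled KO, rest on few or no reads and are the least precise.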
